A study of Mus musculus with 7 samples.

Results

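The 10 genes described here encode adhesion molecules by which leukocytes hold on to vessel walls, to matrix and to other cells, together with a receptor that restrains their movement. They were chosen by name, with earlier results of these data known. The integrin chains are Itgam, Itgax, Itgal, Itgb2, Itga4, Itgb1, Itgav and Itgb5. The others are the selectin ligand gene Selplg and the sphingosine 1-phosphate receptor gene S1pr2. All 10 were present among the 17209 genes of the deposited table. The filter on low counts removed none of these genes, so all 10 passed it. The cells were muscularis macrophages, the resident macrophages of the gut's muscle layer, sorted as CX3CR1-GFP+ cells from muscle peeled off the entire small intestine, where GFP reports the fractalkine receptor CX3CR1. Both groups had the genotype C57BL6/J, with no reporter allele named in the labels and no age or sex of the animals. At 24 h after surgery, 4 sham libraries (Sham 1 to 4) and 3 pMCAO libraries (pMCAO 1 to 3) were made, and the series title refers to pMCAO as stroke. The sham libraries are labelled as biological replicates and those of pMCAO only as replicates, the description of pMCAO 3 names a pool, and the number of animals per library is not stated. The p-values therefore measure only the spread among the libraries, part of which may be technical. CX3CR1 is also found on monocytes and on some natural killer and T cells.

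Integrins are pairs of an alpha and a beta chain that span the membrane and switch between a bent, inactive and an extended, active form when talin and kindlin bind the tail of the beta chain. Itgb2 encodes CD18, the beta chain found only on leukocytes, which pairs with CD11b (Itgam) in the complement receptor Mac-1, with CD11c (Itgax), and with CD11a (Itgal) in LFA-1. Itgb1 encodes CD29, which pairs with many alpha chains, among them CD49d (Itga4) in the VLA-4 receptor of VCAM-1 and fibronectin. The alpha V chain (Itgav) pairs with the beta chain of Itgb5 in a receptor of vitronectin, and pairs of this family also activate latent TGF-beta. Selplg encodes PSGL-1, the sialomucin on which leukocytes roll along P-selectin, and S1pr2 encodes a receptor that signals through G proteins of the G12/13 class to limit migration.

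Levels are given in CPM, the read count relative to the library total, after scaling by the trimmed mean of M values (TMM), which sets libraries to a common scale. Counts of the 10 genes in single libraries ran from 244 to 28737, so none was limited by counting, and library totals over the listed genes ran from 12685941 in pMCAO 1 to 34432716 in Sham 4. Defining genes of macrophages were present in every library, with the reporter locus Cx3cr1 at 207 to 299 CPM in sham and 137 to 222 CPM in pMCAO libraries and Csf1r at 1478 to 2783 and 1614 to 1917 CPM. The 10 fibroblast markers all had higher means after pMCAO, with sums of 58.6 to 169 CPM in sham and 110 to 545 CPM in pMCAO libraries. The 10 blood endothelial markers also all had higher means (122 to 356 against 398 to 558 CPM). Of 11 pan-macrophage markers 10 had lower means (8279 to 12913 against 7025 to 8419 CPM), and of 6 pan-leukocyte markers 5 did (5008 to 5596 against 4113 to 5121 CPM). The 6 monocyte markers summed to 579 to 1448 and 614 to 1244 CPM. Most of these sums was Ccr2 (476 to 1216 and 534 to 970 CPM). Of the 6 markers 4 had higher and 2 lower means, and 1, higher after pMCAO, had an unadjusted edgeR p below 0.05. Every marker of these 5 lists was in the table. These are bulk samples, in which fewer cells of a type and less RNA per cell cannot be told apart.

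After pMCAO, S1pr2 and Selplg had about 52% and 45% lower levels than after sham surgery, with no overlap between the groups, while Itgam, Itga4, Itgb1 and Itgav lay within 0.11 of no change on the log2 scale. The levels of Itgb5, Itgax, Itgal and Itgb2 were intermediate, with log2 changes between -0.35 and -0.47. By the edgeR quasi-likelihood test adjusted over all genes, 0 of the 10 passed, where 0.0988% of all 17209 genes did (17 genes, 12 or 0.0697% higher and 5 or 0.0291% lower). Without scaling factors, which shifted the median of all genes to -0.14, the passing genes were split into 14 higher and 15 lower. With p below 0.05 before adjustment, 2 of the 10 passed by edgeR (S1pr2 and Selplg), both lower, against 13.4% of all genes in either direction and 6.47% lower. DESeq2 called the same pair (adjusted p = 0.0180 and 0.0424), where it called 2.97% of the genes it tested. The 3 pMCAO values lay below all sham values for 3 of the 10 (S1pr2, Selplg and Itgal), against 6.58% of all genes. They lay above all sham values for 0 of the 10, against 5.99%. Because the 10 were chosen with earlier results known, their counts beside these shares are descriptions. The median log2 change of the 10 genes was -0.36, and that of all genes was -0.02. It was -0.55 for the 11 pan-macrophage markers and -0.44 for the 6 pan-leukocyte markers, so a lower median was not particular to the 10 genes.

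**Figure D1:**
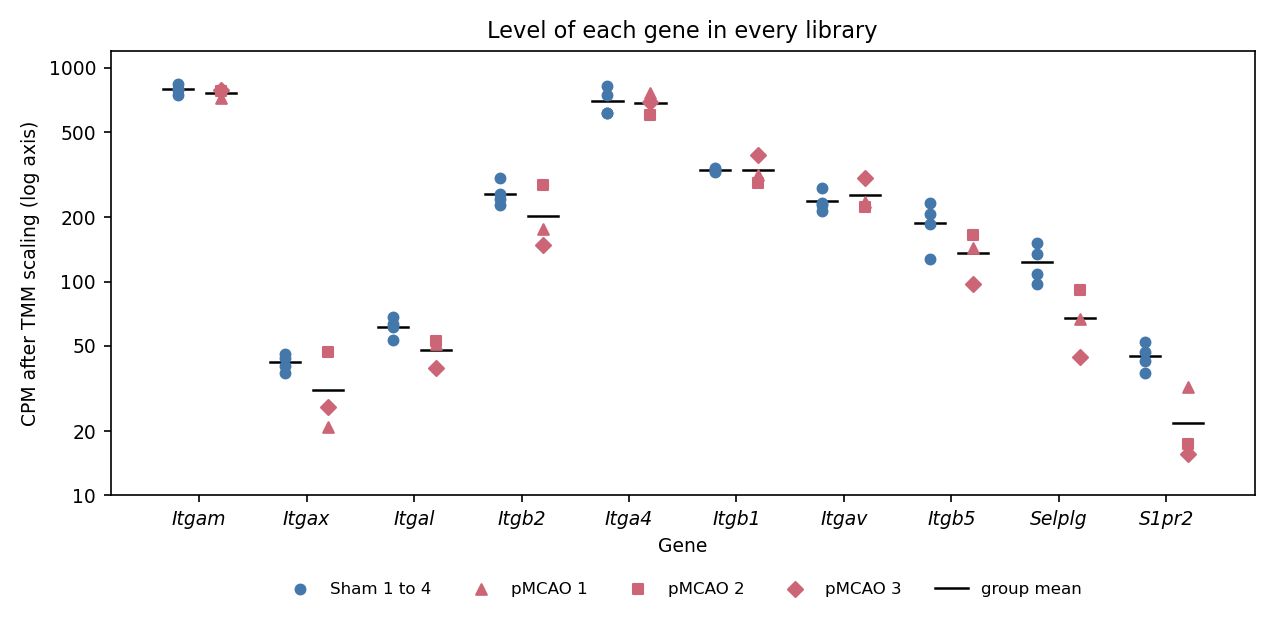
Level of each of the 10 genes in every library, in CPM after TMM scaling on a log axis; circles are the 4 sham libraries, the other symbols are the 3 pMCAO libraries and bars are group means. S1pr2, Selplg and Itgal show no overlap between the groups, and for Itgax and Itgb2 pMCAO 2 stands well above the other pMCAO libraries.

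S1pr2 showed the largest difference of the 10 genes. It was at 37.5, 46.8, 42.7 and 52.1 CPM in Sham 1 to Sham 4 and at 32.1, 17.4 and 15.7 CPM in pMCAO 1 to pMCAO 3. The values of pMCAO 2 and pMCAO 3 were under 20 CPM and that of pMCAO 1 lay just below the lowest sham value. Means were 44.8 ± 6.18 CPM (SD, n = 4) and 21.8 ± 9.03 CPM (SD, n = 3), a log2 change of -1.05 (SE 0.27, interval -1.63 to -0.47, edgeR adjusted p = 0.133). Intervals here are 95% intervals of a single gene, not widened for the number of genes tested. The gene (ENSMUSG00000043895) lies on chromosome 9 of GRCm38, from 20962361 to 20976781 on the minus strand. With libraries left out in turn the log2 change ran from -1.43 (without pMCAO 1) to -0.86 (without pMCAO 3). Relative to the 6 pan-leukocyte genes, a scaling that puts the median of all genes at 0.41, it was -0.64 (SE 0.29, edgeR adjusted p = 0.221). With a score of the fibroblast and endothelial markers as a covariate the log2 change was -1.45 (SE 0.48, edgeR adjusted p = 0.854). That score was -0.5 to 0.91 in sham and 0.83 to 1.91 in pMCAO libraries, so a fit can hardly tell it from the group. Changes fitted with the score are therefore given as descriptions, and the source of a difference cannot be read from them.

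The promoter of S1pr2 is shown because this gene differed most. RefSeq promoter sequences were at hand for 7 of the 10 genes, and the stretch printed is the 250 bases before the start of the transcript, 5′ to 3′ along the gene, at chr9:20976794-20977043 (minus strand, GRCm38.p6). Capitals mark a match to the cAMP response element TGACGTCA, from 181 to 174 bases before the start, which reads the same on both strands. Of 32851 promoters of the same length, 1.55% hold this motif.
S1pr2: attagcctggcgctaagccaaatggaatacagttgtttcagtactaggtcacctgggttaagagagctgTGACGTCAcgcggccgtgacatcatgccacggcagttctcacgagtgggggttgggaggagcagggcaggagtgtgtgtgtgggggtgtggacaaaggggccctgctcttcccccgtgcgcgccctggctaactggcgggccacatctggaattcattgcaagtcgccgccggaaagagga
The match is a description of the letters, and binding to it was not measured here.

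Other genes of sphingosine 1-phosphate signalling were mixed. Of 24 genes of that pathway and of the G12/13 proteins, 23 were measured, 0 passed in either direction over all genes, 11 had higher and 12 lower means, and their log2 changes had a median of -0.00. Before adjustment 6 of the 23 had an edgeR p below 0.05, against 13.4% of all genes. DESeq2 called 2 (Ppap2a and Gna12), against 2.97% of the genes it tested. Gna12, which encodes one of the G proteins that S1pr2 acts through, was at 99.3, 167, 163 and 157 CPM in sham and 83.5, 94.3 and 74.7 CPM in pMCAO libraries, with no overlap (log2 change -0.80, SE 0.20, adjusted p = 0.132). Its close relative Gna13 was at 183 ± 23.3 and 183 ± 24.8 CPM. S1pr1, the receptor that draws leukocytes towards the ligand, was at 86.6 ± 12.9 CPM in sham and 93.4 ± 15.3 CPM in pMCAO libraries, with overlap. The lipid phosphatase genes Ppap2a and Ppap2b, which act on extracellular lipid phosphates, had higher means after pMCAO (3.34 ± 1.07 against 12.2 ± 4.86 CPM, adjusted p = 0.112, and 11.7 ± 7.33 against 28.3 ± 7.47 CPM, adjusted p = 0.210). Those of Ppap2b overlapped. Over the pMCAO libraries both had the same order as the summed endothelial markers (558, 398 and 420 CPM). With the fibroblast and endothelial score as a covariate the log2 changes of Ppap2a and Ppap2b were 0.72 (SE 0.73) and 0.42 (SE 0.77), against 1.86 and 1.28 without it. An order over so few libraries is a description, and the source of these differences was not tested.

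The 5 genes of at least 5 CPM outside the 10 whose log2 CPM followed that of S1pr2 most closely over the 7 libraries were Smarcd2 (Pearson r = 0.995), Plxna3 (0.982), Anp32b (0.981), Eif3c (0.980) and Psmc3 (0.980). Smarcd2, which encodes a subunit of a chromatin remodelling complex, was at 29.5 to 39.6 CPM in sham and at 25.3, 17.6 and 15.1 CPM in pMCAO libraries. Each of the 5 was lower in all pMCAO libraries than in all sham libraries, with edgeR adjusted p from 0.194 to 0.362, as follows from the choice of genes that track S1pr2. The points share libraries and scaling, so the correlations are descriptions.

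Selplg was the other gene with a large difference. It was at 108, 151, 97.2 and 135 CPM in Sham 1 to Sham 4 and at 67.0, 91.5 and 44.5 CPM in pMCAO 1 to pMCAO 3. All pMCAO values lay below the lowest sham value, with pMCAO 2 nearest to it. Means were 123 ± 24.6 CPM (SD, n = 4) and 67.7 ± 23.5 CPM (SD, n = 3), a log2 change of -0.86 (SE 0.24, interval -1.38 to -0.33, edgeR adjusted p = 0.169). The gene (ENSMUSG00000048163) lies on chromosome 5, from 113818536 to 113832644 on the minus strand. The log2 change was -1.14 without pMCAO 2 and -0.63 without pMCAO 3, and the call was made by limma-voom with sample quality weights (-0.89, adjusted p = 0.0291, where 4.75% of all genes were called). Relative to the pan-leukocyte genes it was -0.50 (SE 0.24), and with the fibroblast and endothelial score as a covariate it was -0.88 (SE 0.39). The authors' deposited table gives Selplg a log2 fold change of -1.50 with an adjusted p of 0.105, S1pr2 one of -1.14 (0.197) and Itgax one of -0.95 (0.197). It gives Itga4 0.24 and Itgb1 0.05, above 0 where the edgeR values were just below it. The authors' model is not stated, so their values cannot be set against the edgeR ones as the same quantity. In the authors' deposited results 14 genes have an adjusted p under 0.05, and none of the 10 is among them.

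PSGL-1 binds selectins only when its core protein carries sulfated tyrosines and branched, sialylated and fucosylated sugars. Of 21 genes of selectins, their ligands and the enzymes of this synthesis, 19 were measured, 0 passed over all genes, 9 had higher and 10 lower means, and their log2 changes had a median of -0.00. Before adjustment 2 of the 19 had an edgeR p below 0.05, against 13.4% of all genes. DESeq2 called 1 (Gcnt1), against 2.97% of the genes it tested. Gcnt1, the enzyme that starts the sugar branch, was at 97.5, 112, 99.3 and 96.9 CPM in sham and 172, 133 and 263 CPM in pMCAO libraries. It was thus higher in every pMCAO library than in any sham library (log2 change 0.90, SE 0.21, edgeR adjusted p = 0.112). The log2 change was 0.59 without pMCAO 3 and 1.10 without pMCAO 2, and 0.48 (SE 0.39) with the fibroblast and endothelial score as a covariate. Tpst2, a tyrosine sulfotransferase, was at 46.5 ± 5.81 and 28.7 ± 6.80 CPM, without overlap (log2 change -0.70, adjusted p = 0.216). St3gal3, a sialyltransferase, was at 14.9 ± 1.15 and 9.40 ± 2.76 CPM (log2 change -0.66, adjusted p = 0.380). The fucosyltransferase gene Fut7 was not in the table, and Fut4 was at 17.6 ± 1.36 and 11.8 ± 6.63 CPM, with overlap.

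Among the partners of the beta chain CD18, Itgam was the most abundant and the most even. It was at 792, 839, 748 and 790 CPM in Sham 1 to Sham 4 and at 720, 782 and 784 CPM in pMCAO 1 to pMCAO 3. The groups overlapped and spanned a narrow range. The log2 change was -0.06 (SE 0.15, interval -0.39 to 0.28, edgeR adjusted p = 0.906), so that a difference beyond about 0.39 in either direction lies outside the interval of this fit. Relative to the pan-leukocyte genes, where the median of all genes was at 0.41, it was 0.38 (SE 0.27).

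Itgax differed between the pMCAO libraries more than between the groups. It was at 44.1, 45.7, 37.4 and 40.5 CPM in sham libraries and at 20.9, 46.9 and 25.9 CPM in pMCAO 1 to pMCAO 3. The library pMCAO 2 was above every sham library, while pMCAO 1 and pMCAO 3 were below all of them. The log2 change was -0.42 (SE 0.27, interval -0.99 to 0.15, adjusted p = 0.512), and it was -0.84 (adjusted p = 0.108) without pMCAO 2 and -0.20 without pMCAO 1. With the fibroblast and endothelial score as a covariate it was -0.10 (SE 0.41).

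Itgb2 was also uneven among the pMCAO libraries. It was at 305, 227, 256 and 243 CPM in sham libraries and at 176, 283 and 149 CPM in pMCAO libraries. The library pMCAO 2 stood among the sham libraries and the others below them. The log2 change was -0.35 (SE 0.22, interval -0.81 to 0.12, adjusted p = 0.503), against -0.66 without pMCAO 2 and -0.17 without pMCAO 3. It was 0.14 (SE 0.33) with the fibroblast and endothelial score as a covariate and -0.00 (SE 0.26) relative to the pan-leukocyte genes. In pMCAO 1, pMCAO 2 and pMCAO 3 the 5 measured of 6 natural killer cell markers summed to 51.4, 144 and 33.2 CPM (sham 52.2 to 119), and all 8 T cell markers to 20.9, 52.2 and 19.4 CPM (sham 19.6 to 73.3). The 7 dendritic cell markers summed to 127, 116 and 94.8 CPM (sham 112 to 155). Of these lists 1 marker, Eomes, was not in the table, and their part in the values of Itgax and Itgb2 was not tested.

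Itgal was lower in all pMCAO libraries by a small margin. It was at 61.5, 68.0, 53.6 and 63.1 CPM in sham libraries and at 51.1, 52.9 and 39.3 CPM in pMCAO libraries. Only pMCAO 3 stood clearly apart from the lowest sham library. The log2 change was -0.37 (SE 0.19, interval -0.78 to 0.05, adjusted p = 0.431), it was -0.24 without pMCAO 3, and relative to the pan-leukocyte genes it was 0.03 (SE 0.23). Over the 7 libraries the log2 CPM of Itgal had a Pearson correlation of 0.97 with that of Selplg, the highest of the 45 pairs among the 10 genes, which is a description over libraries of both groups.

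The 3 CD18 partners lie on chromosome 7 of GRCm38. Itgam (ENSMUSG00000030786) runs from 128062640 to 128118491 and Itgax (ENSMUSG00000030789) from 128129547 to 128150657, both on the plus strand and 11.1 kb apart, while Itgal (ENSMUSG00000030830, 127296260 to 127335138) lies 727.5 kb before Itgam. Their neighbour Itgad was not in the table. The promoters of the adjacent pair, which differed in evenness over the libraries, are shown side by side, each as 250 bases before the start on the plus strand, at chr7:128062390-128062639 and chr7:128129300-128129549 (GRCm38.p6, RefSeq). In Itgam capitals mark matches to GAGGAA, a motif bound by the macrophage factor PU.1, on either strand. They lie from 84 to 79 and from 15 to 10 bases before the start. Only this form of the motif was searched for. In Itgax capitals mark a match to the AP-1 motif TGANTCA from 56 to 50 bases before the start.
Itgam: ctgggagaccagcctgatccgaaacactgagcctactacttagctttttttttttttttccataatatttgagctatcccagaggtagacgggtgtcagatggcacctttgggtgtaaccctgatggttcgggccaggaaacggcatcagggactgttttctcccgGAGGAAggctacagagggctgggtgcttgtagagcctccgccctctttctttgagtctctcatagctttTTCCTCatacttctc
Itgax: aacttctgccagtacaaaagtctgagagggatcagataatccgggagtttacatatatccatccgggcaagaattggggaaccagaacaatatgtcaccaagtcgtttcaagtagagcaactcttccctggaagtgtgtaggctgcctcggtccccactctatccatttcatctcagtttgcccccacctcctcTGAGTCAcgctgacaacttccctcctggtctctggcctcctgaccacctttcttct
GAGGAA is in 23.3% and TGANTCA in 6.75% of all 32851 promoters of this length. The RUNX motif TGTGGT, in 14% of them, is in neither of this pair. Of the 7 genes with a promoter at hand, GAGGAA was also in those of Itgb1 and Itgav. These matches describe the letters only, binding was not measured here, and a link between them and evenness was not tested.

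The proportions among the CD18 partners were compared within each library, where scaling plays no part. Per kilobase of exon, Itgam made up 89.7 ± 0.430% (SD, n = 4) of the summed level of the 3 alpha chains in sham libraries and 92.2%, 89.7% and 93.2% in pMCAO 1 to pMCAO 3. Itgax made up 4.96 ± 0.232% in sham libraries and 2.79%, 5.63% and 3.22% in pMCAO libraries. Of 6 ratios between chains that were tested, the log2 ratio of Itgal to Itgam counts was the only one without overlap, at -3.69 ± 0.08 and -4.01 ± 0.27. Its two-sided exact permutation p was 0.0571, the smallest that 4 against 3 libraries allow, and 0.343 after Benjamini-Hochberg adjustment over the 6. For the ratio of Itgax to Itgam the difference was -0.45 (exact p = 0.286, adjusted 0.429). For Itgam to Itgb2 it was 0.34, for Itgb1 to Itgb2 0.38 and for Itgav to Itgb5 0.57 (exact permutation, each with adjusted p of at least 0.429), all with overlap.

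The chains of the VLA-4 receptor had log2 changes near 0. Itga4 was at 819, 613, 748 and 612 CPM in sham libraries and at 762, 603 and 689 CPM in pMCAO libraries, with full overlap. Its log2 change was -0.03 (SE 0.17, interval -0.40 to 0.35, adjusted p = 0.966). Itgb1 was at 324, 341, 330 and 336 CPM in sham libraries and at 315, 289 and 391 CPM in pMCAO libraries. The sham values of Itgb1 were close together and the pMCAO values lay on both sides of them. Its log2 change was -0.00 (SE 0.16, interval -0.35 to 0.34, adjusted p = 0.997). The log2 ratio of Itga4 to Itgb1 was 1.06 ± 0.24 and 1.05 ± 0.23 (exact permutation p = 0.971). Itga4 (ENSMUSG00000027009, chromosome 2, 79255426 to 79333123) overlaps Cerkl, on the other strand, which was listed at 8.10 and 9.51 CPM, and whether strand was used in counting is not given in the sources used here.

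The fitted log2 changes of the alpha V pair had opposite signs, and the intervals of both included 0. Itgav was at 275, 214, 228 and 232 CPM in sham libraries and at 236, 222 and 306 CPM in pMCAO libraries. The pMCAO 3 value was the highest of all and the other pMCAO values lay among the sham libraries. Its log2 change was 0.10 (SE 0.17, interval -0.27 to 0.47, adjusted p = 0.843), and it was -0.05 without pMCAO 3 and -0.03 without scaling factors. Itgb5 was at 127, 186, 232 and 207 CPM in sham libraries and at 144, 165 and 97.7 CPM in pMCAO libraries. Sham 1 was below pMCAO 1 and pMCAO 2, so the groups overlapped. Its log2 change was -0.47 (SE 0.23, interval -0.96 to 0.01, adjusted p = 0.382), it was -0.28 without pMCAO 3, -0.18 (SE 0.39) with the fibroblast and endothelial score as a covariate, and -0.10 (SE 0.27) relative to the pan-leukocyte genes. Over the 7 libraries the log2 CPM of Itgav and Itgb5 had a Pearson correlation of -0.85, the lowest of the 45 pairs, and both genes are also expressed by fibroblasts and smooth muscle, whose markers differed between these libraries. The 8 smooth muscle markers, all listed, summed to 119, 86.9, 246 and 229 CPM in Sham 1 to Sham 4 and 98.8, 172 and 187 CPM in pMCAO 1 to pMCAO 3. The part of fibroblasts and smooth muscle in the levels of Itgav and Itgb5, or in their correlation, was not tested.

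**Figure D2:**
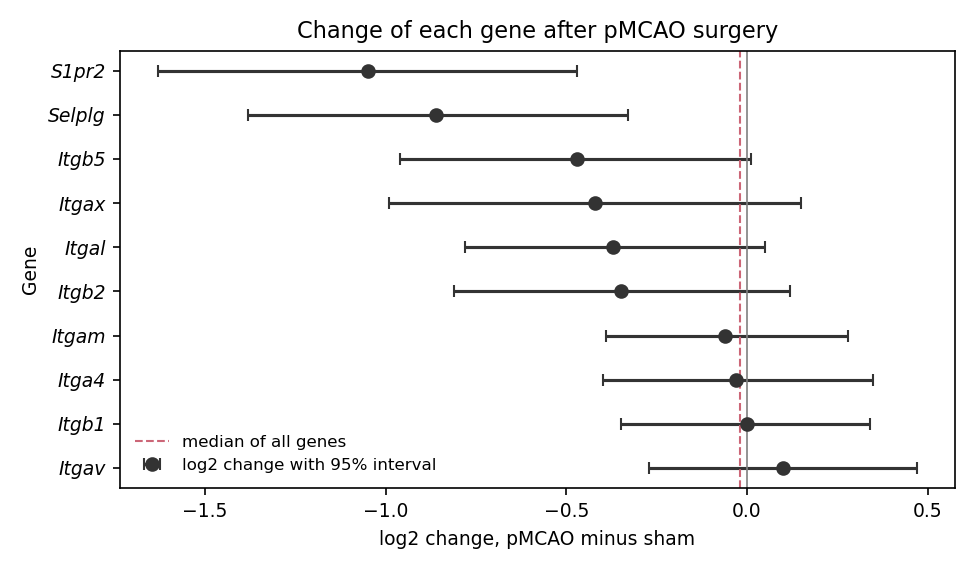
Log2 change of each gene, pMCAO minus sham, with its 95% interval from the edgeR fit; the dashed line is the median of all genes. The intervals of S1pr2 and Selplg lie below 0, and the other 8 include it.

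Per kilobase of exon the 10 levels in sham libraries fell into steps. Itgam was first at 158 ± 7.39 CPM per kb, above all others without overlap. Itgb2 (84.5 ± 11.1) and Itgb1 (81.5 ± 1.79 CPM per kb) followed and did not differ beyond their spread, and neither did Itgb5 (52.9 ± 12.6) and Itga4 (49.9 ± 7.35). Selplg (28.7 ± 5.76) and Itgav (22.1 ± 2.44) overlapped, as did Itgal (9.37 ± 0.912) and Itgax (8.73 ± 0.775), and S1pr2 was last at 5.62 ± 0.775 CPM per kb. After pMCAO S1pr2 was again last (2.73 ± 1.13) and Itgam first (152 ± 7.26 CPM per kb), with Itgb1 (70.8 to 95.8) and Itgb2 (48.7 to 92.8 CPM per kb) overlapping. The order in the middle depends on the length used. By the longest coding transcript in place of all annotated exons, Selplg was at 66.1 ± 13.3 CPM per kb in sham libraries, above Itgb5 at 57.3 ± 13.6, while the first and the last 4 places were as before.

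**Figure D3:**
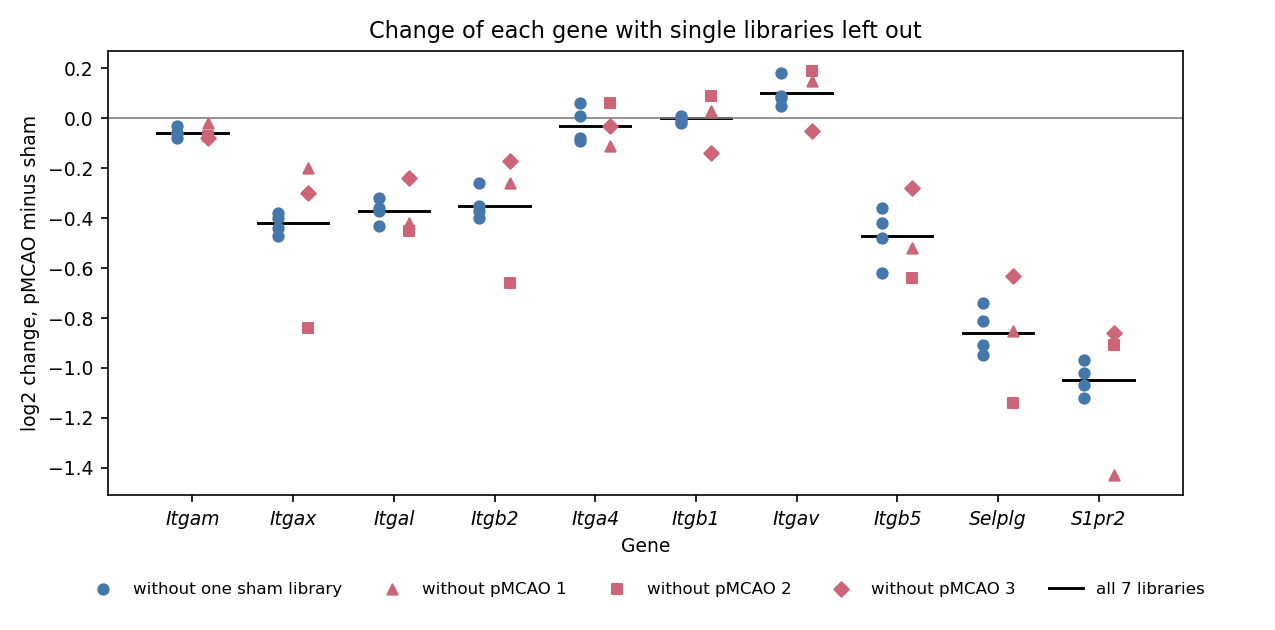
Log2 change of each gene with all 7 libraries (bar) and with each library left out in turn (points). Leaving out pMCAO 2 moved Itgax from -0.42 to -0.84 and Itgb2 from -0.35 to -0.66, and leaving out pMCAO 1 moved S1pr2 from -1.05 to -1.43.

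The remaining integrin machinery was described by its lists. Of 18 other integrin chains 15 were measured and 0 passed over all genes. Before adjustment 4 of the 15 passed by edgeR, against 13.4% of all genes. DESeq2 called 1 (Itga1), against 2.97% of the genes it tested. Among the 15, 8 had higher and 7 lower means, with a median log2 change of 0.14. Itga1, a collagen-binding alpha chain, was at 29.0, 48.2, 13.1 and 19.9 CPM in sham and 98.1, 42.8 and 98.4 CPM in pMCAO libraries. Like the summed fibroblast markers (58.6, 169, 60.7 and 72.3 CPM in sham, 482, 110 and 545 CPM in pMCAO libraries), it was highest in pMCAO 1 and pMCAO 3 and, among sham libraries, in Sham 2. The summed endothelial markers (197, 356, 122 and 126 CPM in sham, 558, 398 and 420 CPM in pMCAO libraries) were highest in the same libraries. The log2 change of Itga1 of 1.53 (SE 0.41, edgeR adjusted p = 0.161) was -0.14 (SE 0.40) with the fibroblast and endothelial score as a covariate. That score largely follows the group, and the source of the Itga1 difference was not tested. Itga2, another collagen-binding chain, was at 2.67 ± 0.612 and 7.63 ± 5.46 CPM (log2 change 1.52, adjusted p = 0.236, and 0.78 without pMCAO 2). Itga9, an abundant chain that pairs with Itgb1, was at 179, 300, 332 and 316 CPM in sham and 175, 113 and 238 CPM in pMCAO libraries (log2 change -0.68, adjusted p = 0.272, and -0.44 without pMCAO 2), with overlap through Sham 1.

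Of 34 genes of integrin activation and adaptors 33 were measured and 0 passed. Before adjustment 6 of the 33 passed by edgeR, against 13.4% of all genes. DESeq2 called 1 (Fermt2), against 2.97% of the genes it tested. Among the 33, 13 had higher and 20 lower means, with a median log2 change of -0.21. The kindlin genes went in different directions. Fermt2, the kindlin of fibroblasts and muscle, was at 9.24 to 16.6 CPM in sham and 29.2, 25.2 and 24.9 CPM in pMCAO libraries, with no overlap (log2 change 1.06, SE 0.27, adjusted p = 0.132, and 0.59, SE 0.45, with the fibroblast and endothelial score as a covariate). Fermt3, the kindlin of leukocytes, was at 83.8, 113, 109 and 120 CPM in sham and 73.8, 85.6 and 46.5 CPM in pMCAO libraries, with overlap (log2 change -0.64, adjusted p = 0.245), and is named outside the rule because it is the partner of Itgb2. Parvb, which links integrins to actin, was at 40.7 ± 7.85 and 25.1 ± 3.24 CPM, without overlap (adjusted p = 0.217). Talin (Tln1) was at 375 ± 37.0 and 313 ± 44.3 CPM, with overlap.

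**Figure D4:**
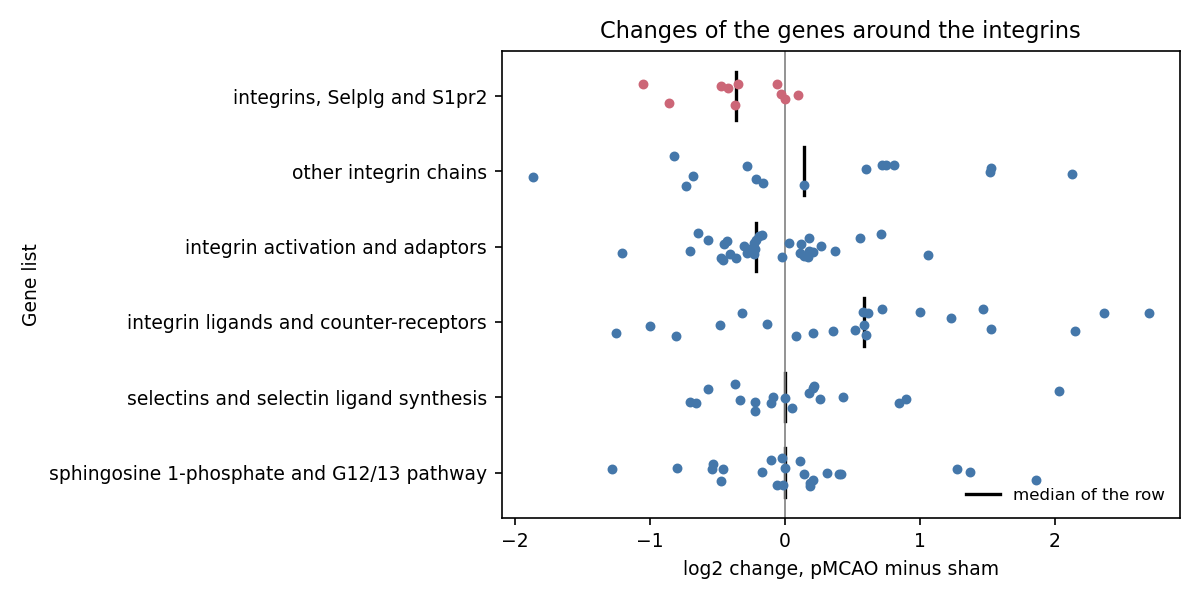
Log2 change, pMCAO minus sham, of each measured gene in the 10 genes described and in 5 lists of related genes; each point is a gene and bars are medians. The median is -0.36 for the 10 genes and 0.58 for integrin ligands, and it lies between -0.21 and 0.14 for the other lists.

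Of 28 integrin ligands and counter-receptors 22 were measured and 0 passed. Before adjustment 10 of the 22 passed by edgeR, 8 of them higher, against 13.4% of all genes in either direction. DESeq2 called 5, against 2.97% of the genes it tested. Among the 22, 16 had higher and 6 lower means, with a median log2 change of 0.58. Col4a1, a basement membrane collagen, was at 24.6, 39.9, 25.1 and 21.8 CPM in sham and 81.6, 45.8 and 69.0 CPM in pMCAO libraries (log2 change 1.23, SE 0.26, adjusted p = 0.0718), without overlap. With the fibroblast and endothelial score as a covariate its log2 change was 0.31 (SE 0.35, adjusted p = 0.930). Tgfb1 and Nrros were among the 6 with lower means. Tgfb1, the cytokine that alpha V integrins release from its latent form, was at 51.1, 57.6, 49.3 and 74.9 CPM in sham and 25.1, 45.3 and 16.8 CPM in pMCAO libraries (interval of the log2 change -1.64 to -0.36, adjusted p = 0.190), without overlap. Nrros, which holds latent TGF-beta on the macrophage surface, was at 229, 321, 319 and 342 CPM in sham and 158, 230 and 130 CPM in pMCAO libraries (log2 change -0.81, SE 0.21, adjusted p = 0.144). For Nrros pMCAO 2 lay just above Sham 1 and the other values did not overlap. Without pMCAO 2, where 100 of 17209 genes passed the edgeR test, both did, with log2 changes of -1.47 for Tgfb1 (adjusted p = 0.0333) and -1.07 for Nrros (adjusted p = 0.0440). Without pMCAO 3 they were -0.72 (adjusted p = 0.394) and -0.64 (adjusted p = 0.329), and with the fibroblast and endothelial score as a covariate -0.54 and -0.55. Other named genes also passed in some fits with a library left out. Over those fits the edgeR adjusted p of Col4a1 ran from 0.0332 to 0.253 and that of Gcnt1 from 0.0321 to 0.313. For Gna12 it ran from 0.0459 to 0.364 and for Itga1 from 0.0474 to 0.424.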

How the data were processed

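The 7 libraries were described in a single deposited table. It holds the authors' read counts for each gene, and STAR, featureCounts, limma and GRCm38 (mm10) are named in the submitters' processing notes, with no versions or settings. Libraries were built from 2.0 ng of total RNA, per the labels' protocols. The deposited CPM values equal the count over the library total, to within 0.0005. The log2 fold changes, p-values and adjusted p-values printed as the authors' are as deposited. Each of the 17209 genes is above 0.5 CPM in at least 4 libraries, so a gene expressed only after pMCAO would be missing.

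Counts were tested with edgeR 4.0.16 (quasi-likelihood F test, robust, TMM, filter by group, group as the only term) in R 4.3.3, two-sided, with Benjamini-Hochberg adjustment over all genes and a threshold of 0.05. The script was tested on simulated data. Alternatives used DESeq2 1.42.0 and limma 3.58.1. Ratios were compared by exact permutation. Lists were described by counts and medians, with no set test; older symbols were matched (Ppap2a, Ppap2b, Cyr61). Genes were named by a rule: the 10 genes, the 3 of each related list with the smallest p, and the 5 most like the gene with the smallest p; 1 gene under this rule is not reported here. Others named (Fermt3, Tln1, Gna13, S1pr1, Fut4, Itga5, Itga6, Itgb3, Itgb7, Itgb8, Vcam1, Icam1) were chosen after their values were seen, as were the motifs. The members and lists were chosen with earlier results of these data known. Positions and exon lengths are those of GENCODE M21 (GRCm38).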

Additional observations from a re-analysis of the deposited data

Results flagged for a closer look

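Among 36 levels and ratios, 3 had a sham library that stood far from the other sham libraries by Dixon's test at the 95% level, which divides the gap to the nearest library by the range of the group. Chance flags about 1 in 20 such groups. Gcnt1 in Sham 2 was at 112 CPM where the others were at 96.9 to 99.3 CPM (gap over range 0.838). Gna12 in Sham 1 was at 99.3 CPM where the others were at 157 to 167 CPM (0.845). Plxna3 in Sham 4 was above the others, which were at 8.09 to 8.37 CPM (0.900). None of the 10 genes described first was among them.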

How the results depend on the processing

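Of 190 values of the 10 genes under 19 other settings, 167 kept their direction and side of the threshold. Leaving out the filter gave the main fit again, because the filter removed no gene, and the threshold of 0.10 reused that fit. Under neither setting could a direction turn. The number of the 10 past the threshold was 2 with DESeq2, 1 with limma-voom and quality weights and 0 otherwise. Over all genes 34 passed with upper-quartile factors, 29 without scaling factors, 75 over genes of at least 5 CPM, 470 with DESeq2, 35 with limma-voom, 818 with quality weights, 98 at an adjusted p under 0.10, 108 with pan-leukocyte scaling (added after seeing the data) and 0 with the fibroblast and endothelial score (995 before adjustment by edgeR). With single libraries left out it was 0 (without pMCAO 1, with 1987 before adjustment by edgeR at p under 0.05), 7 without pMCAO 3, 9 without Sham 4, 47 without Sham 1 or Sham 2 and 100 without pMCAO 2. In the order other chains, adaptors, ligands, selectins and sphingosine 1-phosphate, the lists had 1, 1, 5, 1 and 2 members past the threshold with DESeq2, 3, 2, 9, 2 and 3 with quality weights and 1, 1, 3, 0 and 1 with pan-leukocyte scaling, and 0 to 1, 0, 0 to 4, 0 to 1 and 0 to 1 with single libraries left out. The ligand list had 1 with limma-voom, over genes of at least 5 CPM and at 0.10.

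Some directions turned. Itgb1 was at 0.01 with size factors of DESeq2, in DESeq2 itself and over genes of at least 5 CPM, 0.04 with upper-quartile factors, 0.47 with pan-leukocyte scaling and -0.14 to 0.09 with libraries left out. Itga4 was at 0.01 with upper-quartile factors, 0.12 with quality weights, 0.40 with pan-leukocyte scaling and -0.11 to 0.06 with libraries left out. Itgav was at -0.03 without scaling factors and -0.05 to 0.19 with libraries left out. Itgam (from -0.06 to 0.38), Itgal (-0.37 to 0.03) and Anp32b (-0.39 to 0.03) turned with pan-leukocyte scaling, and Itgb2 (-0.35 to 0.14) and Itga1 (1.53 to -0.14) with the fibroblast and endothelial score. The difference between groups in the log2 ratio of Itga4 to Itgb1, at -0.01 over all libraries, ran from -0.12 to 0.11 with libraries left out. The cause was not tested, save that pan-leukocyte scaling moves the median of all genes to 0.41. The replicate block called 21 genes, against 17, with log2 changes of -1.04 for S1pr2 (adjusted p = 0.297) and -0.84 for Selplg (adjusted p = 0.219), and changed no call among the 10. Deviations of same-numbered libraries had correlations of -0.08, -0.01 and 0.10, so the numbers were not used as pairs. With 4 against 3 libraries, no ratio could pass by permutation.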

Other observations

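The integrin chains outside the 10 genes differed widely in level. Itga6, a laminin-binding chain, was at 193, 267, 236 and 246 CPM in sham and 217, 199 and 364 CPM in pMCAO libraries, with overlap and pMCAO 3 the highest (log2 change 0.14, edgeR adjusted p = 0.818). Itgb7, which pairs with Itga4 in the gut-homing receptor of lymphocytes, was at 21.5 ± 5.95 and 17.7 ± 8.44 CPM, far under Itgb1. Itgb3 and Itgb8, other partners of Itgav, were at 4.18 ± 2.58 and 2.50 ± 1.69 CPM and at 1.14 ± 0.868 and 1.00 ± 0.974 CPM, and both overlapped between groups. Itga5, the fibronectin receptor chain, had a log2 change of -0.21 (adjusted p = 0.754), with overlap. On the side of the ligands, Vcam1, the counter-receptor of VLA-4, was at 405 ± 67.3 and 604 ± 155 CPM (log2 change 0.58, adjusted p = 0.253) and Icam1, that of LFA-1 and Mac-1, at 28.3 ± 5.47 and 20.4 ± 5.09 CPM (log2 change -0.48, adjusted p = 0.448), each with overlap.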
